A study of Mus musculus with 4 samples.

Results

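The clustered protocadherins are cadherin-like cell-surface proteins encoded by 3 neighbouring gene clusters, alpha (Pcdha), beta (Pcdhb) and gamma (Pcdhg). The members were taken by name, as every gene in the deposited table whose symbol gave it to one of the 3 clusters, and no measured value was used to choose them. This rule found 50 of the 25393 listed genes, namely 7 of the alpha, 21 of the beta and 22 of the gamma cluster. RNA-seq was performed on primary astrocytes cultured from C57BL/6 mouse pups at postnatal day 1, from cortex and hippocampus together, without treatment. Of the 4 libraries, 2 were labelled wild-type (WT) for Tet1 and 2 were labelled tet1-/- (KO), from constitutive Tet1 knockout mice in which every cell carries the deletion. Tet1 is an enzyme that oxidises 5-methylcytosine in DNA, and the comparison asks which genes differ in astrocytes without it. Each isolation pooled 2 mice, and the cells were grown for about 7 days in a coated flask, shaken at 260 rpm to remove looser cells and kept for another 24 h. The study calls its RNA-seq replicates biological repeats, and neither it nor the labels say whether these were separate cultures. With 2 libraries of each label analysed here, the p-values below measure only the spread between these libraries, which may be in part technical.

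In the alpha and gamma clusters, a row of variable exons, each with its own promoter, is spliced to a common set of constant exons, while each beta gene is a single exon on its own. A neuron switches on a small, largely random set of the variable promoters. This choice depends on CTCF, cohesin and distant enhancers, and silent promoters carry DNA methylation. The C-type isoforms at the end of the alpha and gamma clusters are expressed more evenly between cells. The proteins recognise identical partners on neighbouring cells, which gives neurons the means to tell their own branches from those of others, and gamma protocadherins also act at contacts between astrocytes and neurons.

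All members lie on the plus strand of mouse chromosome 18 (mm10, which is GRCm38). The alpha cluster spans 36930184 to 37187661, the beta cluster 37264938 to 37524479 and the gamma cluster 37661793 to 37841873. GENCODE M21 annotates 58 genes under such names, 14 alpha, 22 beta and 22 gamma. Those without a listed value were Pcdhb1, Pcdha1, Pcdha3, Pcdha4, Pcdha6, Pcdha7, Pcdha8 and the second of a pair of genes named Pcdha11, and the table lists no gene with 0 reads throughout. The listed length of all 50 members equalled their annotated exon bases.

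The exon structure limits what a count for 1 isoform can show. Every alpha member shares 2860 exon bases with the rest of its cluster, and gamma members share at least 2116 bases, most often 2119. The median share of exon bases covered by no other gene was 46.6% in alpha, 100% in beta and 54.7% in gamma. How reads on the shared exons were counted is not given in the sources used here. Pcdha2 was listed at 0 in both libraries labelled KO while Pcdhac2, which has the same constant exons, had 182 and 306 reads there, so that reads on the shared exons were not added to every gene. Pcdhga10 has 0 exon bases of its own, and it was listed with 1, 1, 1 and 2 reads in the 4 libraries. Strandedness is not given either, and 8 gamma, 1 beta and 1 alpha member overlap exons on the opposite strand. For Pcdhgc3 the overlap is 1559 bases and for Pcdhb12 it is 1927 bases, and reads of the antisense genes there cannot be told apart from theirs. The levels of single genes are therefore compared per kilobase of a gene's own exon bases. For this the whole count of a gene was divided by these bases, so reads on its other exon bases are included.

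**Figure D1:**
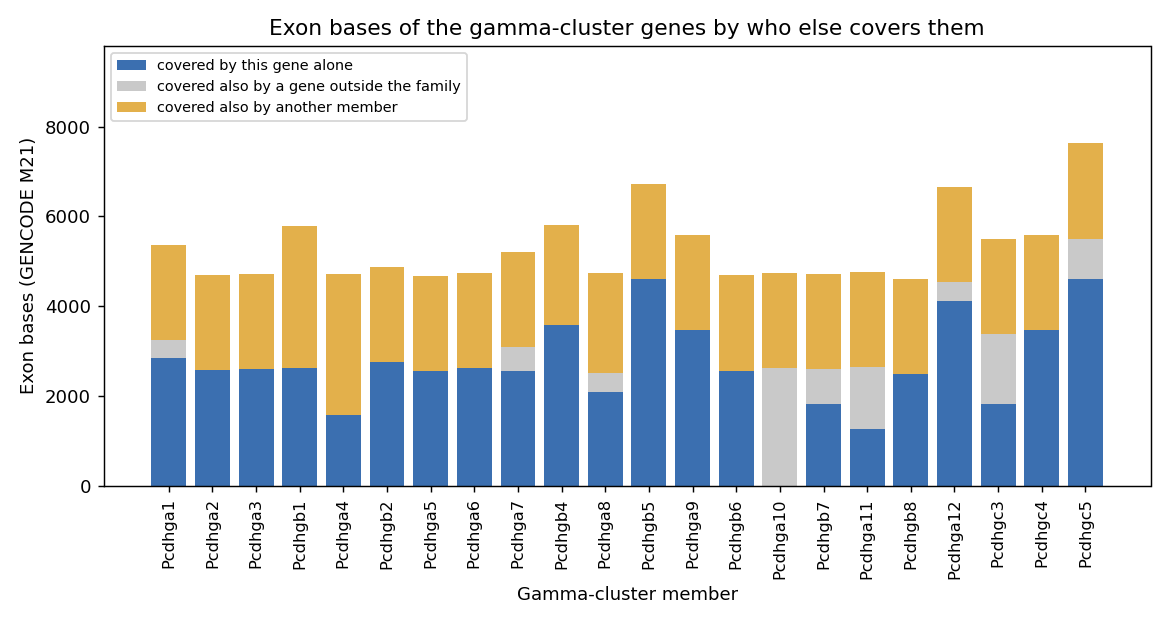
Exon bases (vertical axis) of each gamma-cluster gene in order along the chromosome, split into bases covered by that gene alone, bases covered also by a gene outside the family and bases covered also by another member. Every gamma gene shares at least 2116 bases with other members, and Pcdhga10 has 0 bases of its own.

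The 4 libraries held 18749610 to 22673555 reads on genes, and 1 read was worth 0.901 to 1.07 normalized counts (reads scaled by a size factor for each library). KO replicate 1 had 4563 listed genes at 0, against 2661 and 2843 in WT and 2597 in KO replicate 2. A count of 3 reads was taken as the detection floor. The libraries labelled KO were not low in Tet1 itself, with 173 and 463 normalized counts against 266 and 121 in WT (log2 fold change 0.66 ± 0.65 SE, limma adjusted p = 0.691). The Tet1 count, which covers the whole gene, thus did not separate the labels, and which exons the deletion removes is not given in the sources used here. Every direction below is that of the libraries labelled KO. No gene passed an adjusted p of 0.05 with limma on log2(normalized count + 1), and of 22094 tested genes 3032 reached an unadjusted p under 0.05. With edgeR 0 genes passed (2733 unadjusted), and with DESeq2 1104 passed (2775 unadjusted). All adjusted p-values are Benjamini-Hochberg adjusted over all genes tested. Of the astrocyte markers, 10 of 10 were measured in every library. They summed to 178648 and 183415 normalized counts in WT, 290379 in KO replicate 1 and 52356 in KO replicate 2. At an unadjusted limma p under 0.05, 2 of them were lower and 0 higher (all genes, 9.18% lower and 4.54% higher). Their log2 fold change was negative in 8 of 10, with a median of -0.73. Microglial markers summed to 1071 and 2409 in WT against 181 and 200 with the KO label (8 of 10 lower at an unadjusted p under 0.05), and dividing-cell markers to 229 and 1163 in WT against 2768 and 5583 with the KO label (6 of 6 higher). Neuronal markers summed to 4185 and 4774 in WT against 4752 and 5091 with the KO label. Of the 10 neuronal markers tested, Gad1 was lower and Tubb3 and Dcx were higher at an unadjusted p under 0.05, and Snap25 and Nefl were at 0 in both WT libraries. Over these 10 the log2 fold change was positive in 7 and negative in 3, with a median of 1.46. The near-equal sums thus do not stand for the single neuronal markers. Markers of meningeal fibroblasts and mural cells summed to 4502 and 12697 in WT against 26373 and 52688 with the KO label (2 of 7 lower and 2 higher), and of these Acta2 alone had 1980.3 and 8903 in WT against 22252 and 50185 with the KO label. In bulk RNA, fewer cells of a type and less RNA per cell cannot be told apart, and the part of these markers in the results below was not tested.

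Together the clusters gave fewer reads in the libraries labelled KO. Members took 20105 and 19438 reads in WT, which is 0.107% and 0.0857% of the reads on genes. In the libraries labelled KO they took 11528 and 8709 reads, or 0.0557% and 0.0389%. Summed over all members the normalized counts were 21451 and 17874 in WT against 12339 and 7850 in KO replicates 1 and 2, so that the groups did not overlap and the KO mean was 0.513 of the WT mean. With 2 libraries against 2, an exact permutation test cannot give a two-sided p below 0.333.

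Of the 50 members, 49 passed the filter on low values (a mean of at least 1 normalized count), and Pcdha2 did not. At an unadjusted p under 0.05, 8 of these 49 were lower (16.3%), against 9.18% of all genes tested. Pcdha9 alone was higher, against 4.54% of all genes. The other 40 passed in neither direction, and 0 members passed after adjustment (lowest limma adjusted p = 0.194). The log2 fold change was negative in 37 members and positive in 12, with a median of -0.65, beside -0.07 over all genes. Of these 12, Pcdha5, Pcdha9 and Pcdhac1 passed the filter only through the libraries labelled KO. Both WT libraries lay above both libraries labelled KO in 19 members (38.8%), against 25.4% of all genes, and the reverse held in 6 members, against 22.5% of all genes. Of these 6, Pcdhga10 (1, 1, 1 and 2 reads) and Pcdhac1 (0, 0, 3 and 2 reads) exceeded the floor of 3 reads in no library. DESeq2 called 3 members lower at an adjusted p under 0.05 (Pcdhga1, Pcdhb9 and Pcdhgc4) and 0 higher, while it called 3.68% of all genes lower. It gave no adjusted p for 5 members of low count.

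The count of 8 rested on single libraries. It was 0 without WT replicate 1, 3 without WT replicate 2 and 5 without KO replicate 2, and it was 12 without KO replicate 1. The same omissions took the count over all genes from 3032 to 1135, 1380, 2955 and 4846. Leaving out a library leaves its group with 1 sample, which is then assumed to vary like the other group.

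**Figure D2:**
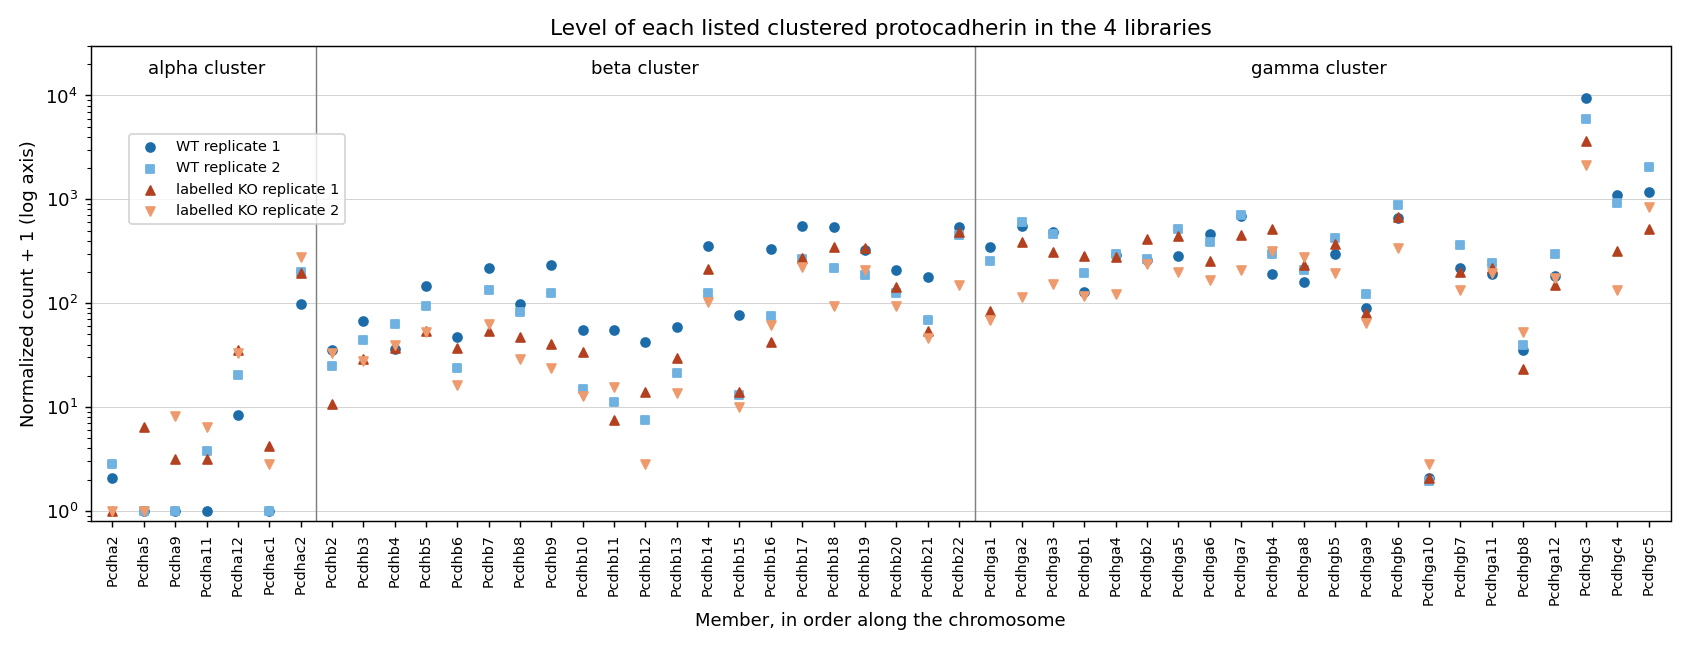
Normalized count + 1 (vertical log axis) of each listed member in order along the chromosome, with 1 point for each of the 4 libraries. Pcdhgc3 had 2118 to 9390.4 normalized counts, above every other point of its library, and all alpha members except Pcdhac2 lie below 35 normalized counts.

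The C-type isoforms of the gamma cluster were lower in both libraries labelled KO than in both WT libraries. Pcdhgc3 (ENSMUSG00000102918, 37806364 to 37841873), the isoform known to bind Axin1 and to promote branching of cortical dendrites, had 2895 normalized counts per kilobase of its own exons, the highest of the members. The next were Pcdhgc5 with 249.9 and Pcdhgb6 with 247. Per listed kilobase, with shared and antisense-covered bases kept, Pcdhgc3 had 959, Pcdhgc5 151 and Pcdhgb6 135. The counts of Pcdhgc3 were 9390.4 and 5955 in WT against 3626 and 2118 in KO replicates 1 and 2. All WT values lay above all values of the libraries labelled KO, and within each label replicate 1 was the higher. The log2 fold change was -1.43 ± 0.41 (SE, n = 2 against 2, limma adjusted p = 0.268), and it stayed between -1.82 and -1.04 when single libraries were left out. The antisense transcript BC037039, which overlaps the start of Pcdhgc3, had 57.6 and 26.7 normalized counts in WT against 12.8 and 11.7 with the KO label.

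Pcdhgc4 (ENSMUSG00000023036, 37815079 to 37841873), the gamma isoform on which the survival of many neurons depends, had 1090.4 and 925 normalized counts in WT against 319 and 132 with the KO label. Both libraries labelled KO lay far below both WT libraries. The log2 fold change was -2.28 ± 0.49 (SE, limma adjusted p = 0.195) and ranged from -2.91 to -1.65 over the omissions. In DESeq2 it was -2.16 with an adjusted p of 0.00621, and over all settings the adjusted p ranged from 0.00621 to 0.935. Pcdhgc5 had 1178 and 2063 in WT against 517 and 846 with the KO label, again without overlap, and here replicate 2 was the higher of both pairs (log2 fold change -1.24 ± 0.43 SE, limma adjusted p = 0.326). All 3 gamma C-type isoforms thus had an unadjusted p under 0.05, with a median log2 fold change of -1.43. Over all genes tested 9.18% were lower in limma at that threshold. In 25.4% of all genes both WT libraries lay above both libraries labelled KO.

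The C-type isoforms of the alpha cluster did not share that direction. Pcdhac2, which serotonergic axons need to spread evenly over their targets, had 97.1 and 198 normalized counts in WT against 195 and 276 with the KO label. WT replicate 1 stood below the other 3 libraries, and the groups overlapped (log2 fold change 0.74 ± 0.51 SE, limma adjusted p = 0.568). Pcdhac1 was listed at 0 in both WT libraries and had 3 and 2 reads in the libraries labelled KO, at or under the detection floor in both groups, so no fold is given.

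Of the 12 gamma A isoforms, 3 were lower at an unadjusted p under 0.05, 10 had a negative log2 fold change and in 8 both WT libraries lay above both libraries labelled KO. Over all genes tested 9.18% were lower and in 25.4% the WT libraries lay above. Their median log2 fold change was -0.61. Pcdhga1 (ENSMUSG00000103144, 37661793 to 37841873), the first variable exon of the cluster, had 350.0 and 253 normalized counts in WT against 82.4 and 68.5 with the KO label. The libraries of each label lay close together and far from those of the other. Its log2 fold change of -1.97 ± 0.42 (SE) had the lowest limma adjusted p of the members, 0.194, and ranged from -2.20 to -1.74 over the omissions. DESeq2 gave -2.00 with an adjusted p of 0.00403, within a range over all settings of 0.00403 to 0.931.

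Directly upstream of Pcdhga1 on the same strand lies the long intergenic RNA 3222401L13Rik (37655451 to 37661742). It had 272 and 234 normalized counts in WT against 84.6 and 116 with the KO label, also without overlap (log2 fold change -1.34 ± 0.41 SE, limma adjusted p = 0.286). Further upstream, Taf7, a gene for a subunit of the basal transcription factor TFIID, had 110 and 131 in WT against 94.2 and 139 with the KO label, a log2 fold change of -0.07. These genes and BC037039 were named after their values were seen, from the genes that lie between or within the clusters.

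Pcdhga7 had the highest level of the gamma A isoforms per own kilobase, 200.5 normalized counts. It had 697 and 698 in WT against 451 and 209 with the KO label, so that the WT replicates were nearly equal and KO replicate 2 was far below KO replicate 1 (log2 fold change -1.18 ± 0.45 SE, limma adjusted p = 0.358). Pcdhga6, the remaining gamma A isoform of the 8, had 467 and 390 against 253 and 166. Pcdhga2 had 547 and 610 in WT against 384 and 114 with the KO label, and Pcdhga3 had 483 and 464 in WT and 313 and 151. Neither overlapped between labels, but both had an unadjusted p above 0.05 (limma adjusted p = 0.389 and 0.371). For Pcdhga5 the groups overlapped, with 284 and 520 in WT against 441 and 196 with the KO label. Pcdhga8 went the other way without passing the test, with 160 and 208 in WT against 232 and 279 with the KO label.

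The gamma B isoforms, which alternate with the gamma A exons along the same stretch, overlapped between labels in 5 of 7 genes. Of 7, 0 had an unadjusted p under 0.05 in limma, 4 had a negative and 3 a positive log2 fold change, and the median was -0.09. Over all genes tested 9.18% were lower and 4.54% higher at that threshold. Groups lay apart with WT above in 25.4% of all genes and with KO above in 22.5%, and overlapped in the rest. Pcdhgb6 had 653 and 875 in WT against 670.1 and 339.8 with the KO label. KO replicate 1 fell between the WT libraries (log2 fold change -0.66 ± 0.44 SE). Pcdhgb2 had 257 and 267 in WT against 414 and 237 with the KO label, and Pcdhgb7 had 217 and 360.5 in WT against 200.2 and 134 with the KO label. Pcdhgb4 was the gamma B isoform with both libraries labelled KO above WT, 514 and 315 against 189.9 and 299.8, where WT replicate 2 and KO replicate 2 nearly met (log2 fold change 0.75 ± 0.44 SE, limma adjusted p = 0.501). In all 7 gamma B isoforms WT replicate 1 was below WT replicate 2.

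The difference between the gamma A and gamma B medians was not tested, since both groups were measured in the same 4 libraries and their genes share exons.

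**Figure D3:**
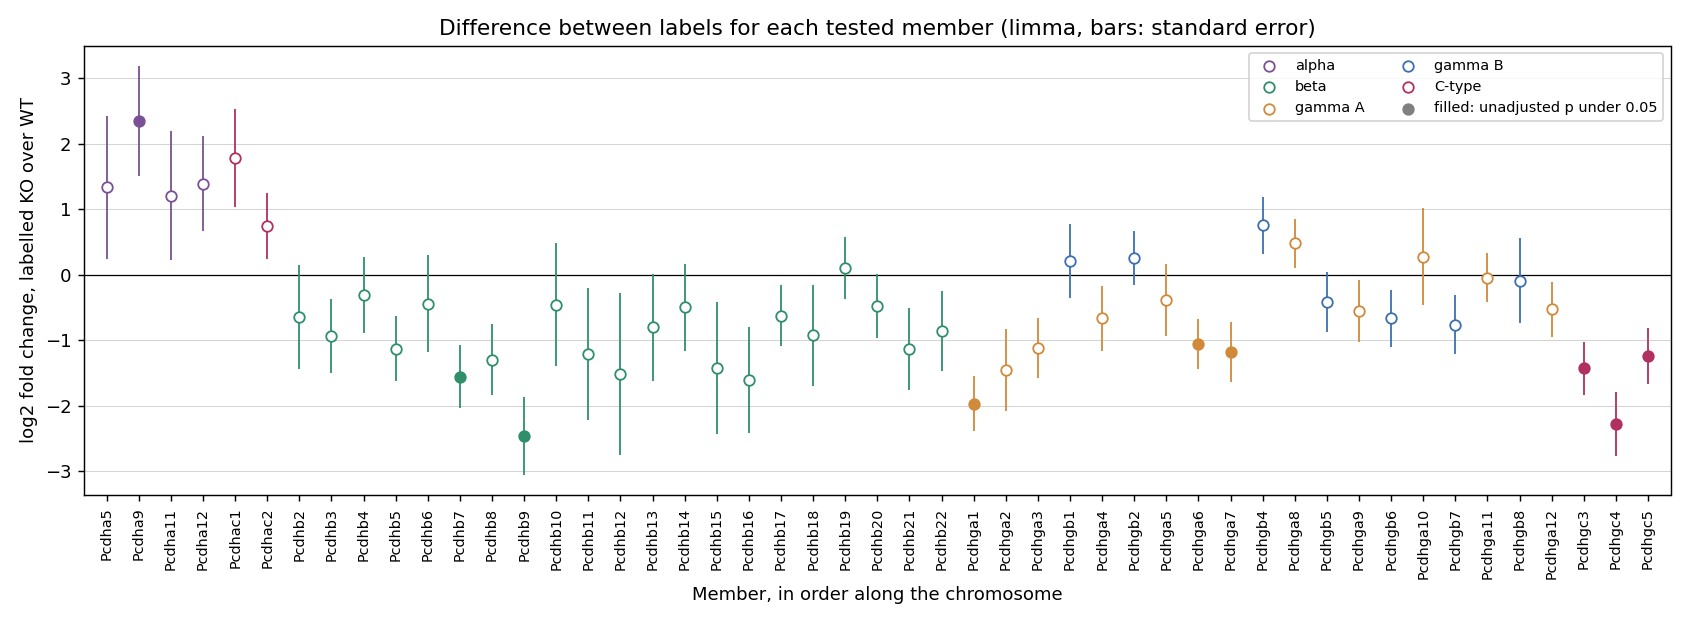
log2 fold change of the libraries labelled KO over WT (vertical axis) for each of the 49 tested members in order along the chromosome, with bars of 1 standard error from limma. The 9 filled points had an unadjusted p under 0.05 and 0 passed after adjustment. Points of the beta cluster lie below 0 in 20 of 21 genes and those of the alpha cluster above 0 in 6 of 6. Of the alpha points, Pcdha5, Pcdha9 and Pcdhac1 passed the filter on low values only through the libraries labelled KO. Pcdha2, with reads in WT alone, did not pass it and is not shown.

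In the beta cluster 20 of 21 genes had a negative log2 fold change, with a median of -0.92, but only 2 (9.52%) had an unadjusted p under 0.05, close to the 9.18% of all genes. In 7 genes both WT libraries lay above both libraries labelled KO, in 0 the reverse held and in 14 the groups overlapped, where over all genes 25.4% had WT above and 22.5% the reverse. Pcdhb9 (ENSMUSG00000051242, 37400855 to 37403909) had 233 and 123 normalized counts in WT against 39.6 and 22.5 with the KO label. Replicate 1 was the higher within each label, and the groups were well apart (log2 fold change -2.46 ± 0.59 SE, limma adjusted p = 0.219, range over the omissions -2.92 to -2.01). DESeq2 gave -2.52 with an adjusted p of 0.00569, and the adjusted p over all settings ranged from 0.00569 to 0.935. Pcdhb7 had 216 and 134 in WT against 52.4 and 62.2 with the KO label (log2 fold change -1.56 ± 0.48 SE, limma adjusted p = 0.288).

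The beta genes with the highest levels per own kilobase lie in its downstream part. Pcdhb17 (70.2 normalized counts per kilobase) had 548 and 265 in WT against 271 and 224 with the KO label. Pcdhb22 (66.2 per kilobase) had 539.9 and 452 in WT against 488 and 149.6 with the KO label, and Pcdhb18 (59.1 per kilobase) had 538 and 217 in WT and 344 and 93.7. Pcdhb20 (39.6 per kilobase) had 206 and 124 in WT against 141 and 92.8 with the KO label. In each of these 4 the groups overlapped, and the log2 fold changes ran from -0.92 to -0.48. Over the 21 beta genes, level per own kilobase was higher toward the downstream end (Spearman rho 0.56, n = 21 genes measured in the same libraries), whereas the log2 fold change did not follow that order (rho 0.04).

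The beta difference was smaller without WT replicate 1. WT replicate 1 was above WT replicate 2 in 20 of 21 beta genes, as against 46.2% of all genes, with a median log2 difference of 0.97 between these replicates. The summed counts were 4175 and 2155 in WT against 2284 and 1303 with the KO label, so that WT replicate 2 fell below KO replicate 1. Without WT replicate 1 the median log2 fold change of the beta cluster was -0.27 in place of -0.92. In the gamma cluster WT replicate 1 was the higher in 6 of 22 genes. KO replicate 1 was above KO replicate 2 in 17 of 22 gamma and 16 of 21 beta genes, as against 45.8% of all genes. The median log2 difference between these replicates was 0.74 in gamma. Without KO replicate 2 the median log2 fold change of the gamma cluster was -0.43 in place of -0.61.

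The alpha cluster was sparse. Apart from Pcdhac2, Pcdha12 had the highest level per own kilobase (12.02 normalized counts), with 7.47 and 19.3 normalized counts in WT against 34.3 and 32.4 with the KO label. The groups did not overlap, and the WT replicates differed more from each other than those labelled KO (log2 fold change 1.39 ± 0.72 SE, limma adjusted p = 0.461). Pcdha9 was at 0 in both WT libraries and had 2 and 8 reads in the libraries labelled KO. Against the floor of 3 reads per library it was at least 1.57-fold higher (unadjusted p = 0.0353, limma adjusted p = 0.340), and a few reads decide this call. Pcdha11 had 0 and 3 reads in WT against 2 and 6 with the KO label, and Pcdha5 had 5 reads in KO replicate 1 and 0 in the other three. All 6 tested alpha members had a positive log2 fold change, with a median of 1.36. Of these, Pcdha5, Pcdha9 and Pcdhac1 passed the filter on low values only through the libraries labelled KO, which fixed their sign. Pcdha2, with 1 and 2 reads in WT and 0 in both libraries labelled KO, was removed by the same filter. The 6 positive signs were thus in part set by the filter. The median of 1.36 was 2.80 and 0.65 with pseudocounts of 0.1 and 5, 2.85 with edgeR and 2.61 with DESeq2. With Pcdha9 at its bound and with Pcdha5 and Pcdhac1 left out, since both of their group means are under the floor, the median was 0.97. There Pcdha11 kept its estimate, though its WT reads of 0 and 3 are also at or under the floor.

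**Figure D4:**
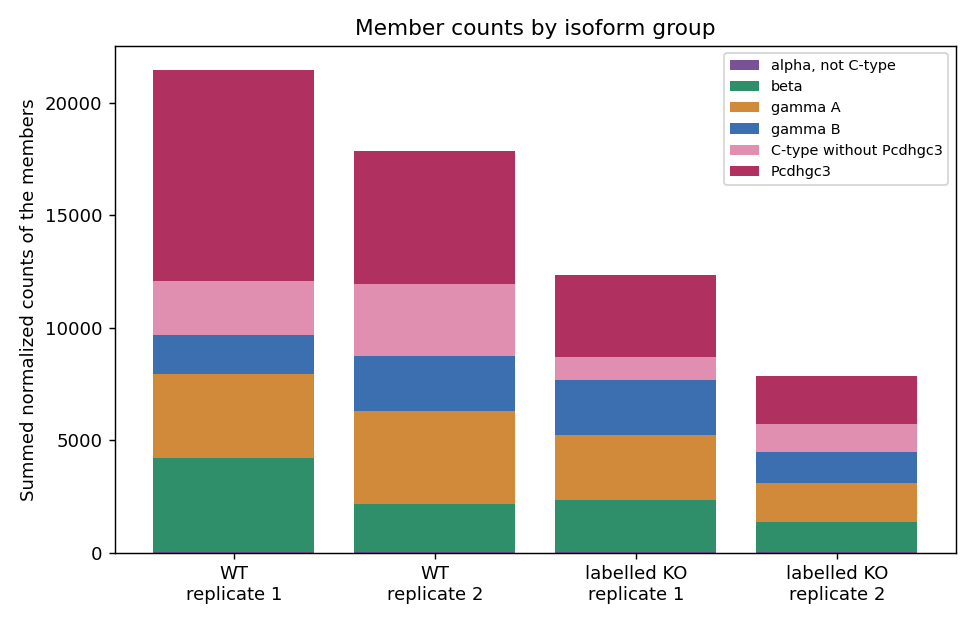
Summed normalized counts of the members (vertical axis) in each library, stacked by isoform group. The totals are 21451 and 17874 in WT against 12339 and 7850 with the KO label, and Pcdhgc3 is the largest block of each bar.

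The make-up of the transcript pool also differed between libraries. Pcdhgc3 made up 43.8% and 33.3% of member counts in WT against 29.4% and 27.0% in KO replicates 1 and 2. Per kilobase of own exons these shares came to 57.9% and 45.7% in WT against 40.9% and 38.3% with the KO label. The C-type isoforms together summed to 11756 and 9140 in WT against 4660 and 3375 with the KO label, a KO mean of 0.385 of the WT mean. Gamma A summed to 3737 and 4096 in WT against 2879 and 1739 with the KO label. Gamma B summed to 1775 and 2460 in WT against 2472 and 1388 with the KO label, so that these groups overlapped (0.911 of the WT mean). The alpha cluster summed to 106 and 222 in WT against 242 and 323 with the KO label (1.73 of the WT mean). With Pcdhgc3 left out, all other members still summed to 12061 and 11919 in WT against 8713 and 5732 with the KO label (0.602 of the WT mean).

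The number of isoforms detected was nearly equal in the 4 libraries. More than 3 reads were found for 44 members in each WT library and 45 in each library labelled KO, and 43 members passed this floor in all 4 libraries. More than 10 reads were counted for 43 members in each WT library and 42 in each library labelled KO. The evenness of the pool was given as an effective number of isoforms, the number of equally expressed isoforms with the same Shannon entropy of levels per listed kilobase. It was 14.7 and 17.4 in WT against 20.99 and 22.5 with the KO label. Per kilobase of own exon bases it was 8.20 and 11.3 in WT against 13.9 and 15.1 with the KO label. Without Pcdhgc3, and per listed kilobase, it was 31.7 and 27.2 in WT against 30.4 and 31.4 with the KO label, where the groups overlapped. These cultures hold many cells, so a count of isoforms per library says nothing of how many a single cell used.

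The first exons of the members, all of them over 2000 bases long, differ in how many CpG dinucleotides they hold. The median was 4.84 CpGs per 100 bases in alpha, 2.06 in beta, 3.13 in gamma A, 4.60 in gamma B and 3.82 in the C-type isoforms. The other listed protein-coding genes had a median of 7.89 (15983 genes), and those with a first exon of at least 2000 bases had 3.21 (390 genes). The single exon of a beta gene is its whole transcript (median 3718 bases). In alpha, gamma A and gamma B the first exon is the variable exon alone (medians 2481, 2609.5 and 2551 bases). Values across the clusters thus compare unlike stretches. Over the 48 tested members with own exon bases, members with more CpGs had less negative log2 fold changes (Spearman rho 0.44), also within gamma A and B (rho 0.51, n = 18) but not within beta (rho 0.001). Over 363 other tested genes with a long first exon the same rho was 0.21. Within gamma A and B the log2 fold change also rose toward the downstream end (rho 0.37, n = 18). Within gamma A alone that rho was 0.73 (n = 11), and position and CpG content were not separated.

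CpG content was also related to the difference between the WT libraries. Over the 48 members, the log2 difference of WT replicate 1 over WT replicate 2 was lower in members with more CpGs (rho -0.72), whereas that of KO replicate 1 over KO replicate 2 did not (rho -0.02). Within the clusters the first relation was weak in beta (rho -0.17, n = 21). It was present within gamma A and B (rho -0.64, n = 18) and within gamma A alone (rho -0.74, n = 11). In the 363 other genes the rho was -0.19 for the WT difference and 0.06 for the difference between the libraries labelled KO. The points of each correlation share the same libraries and depth, and neighbouring members are similar in sequence, so these values are descriptions without a test. The part of base composition in the difference between labels was not tested.

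**Figure D5:**
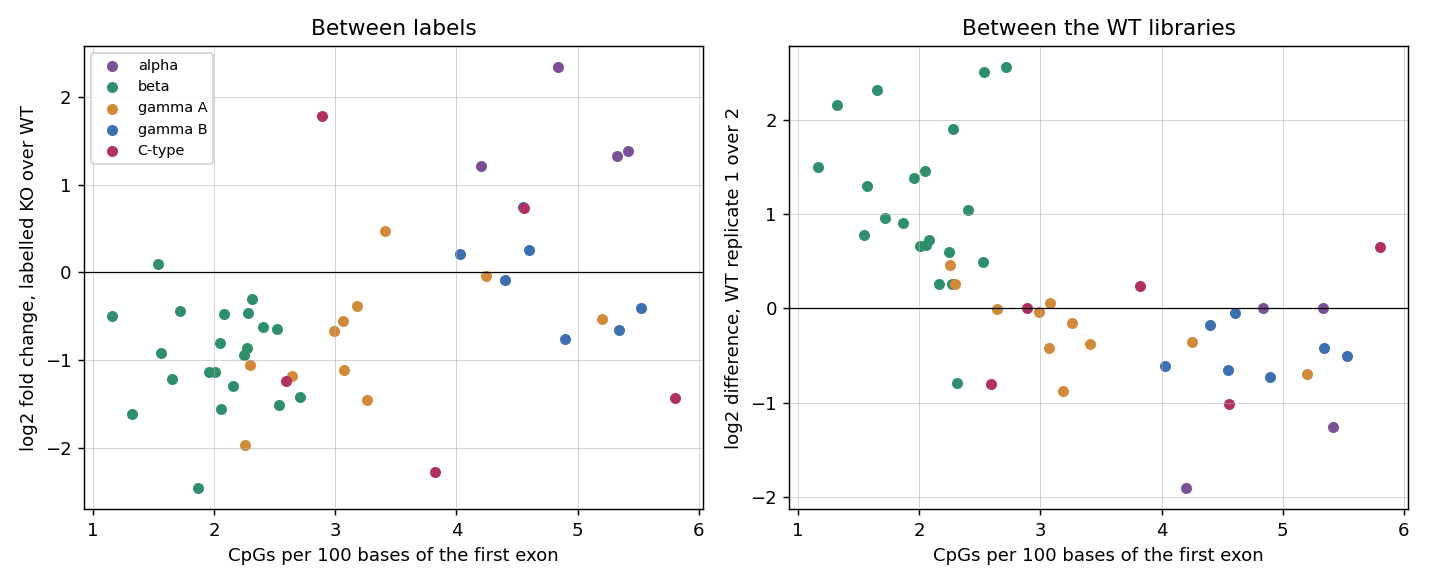
CpG dinucleotides per 100 bases of the first exon (horizontal axes) of the 48 tested members with own exon bases, against the log2 fold change of the libraries labelled KO over WT (left) and the log2 difference between WT replicates 1 and 2 (right). On the right, all but 1 of the beta genes lie above 0 and all gamma B isoforms below it.

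The genes known to govern promoter choice and chromatin at the clusters were taken as a list of 32, all of them tested. Of these, 0 were lower and 2 higher at an unadjusted p under 0.05, with a median log2 fold change of 0.10, where 9.18% of all genes were lower and 4.54% higher. Uhrf1, which directs the maintenance methyltransferase to newly copied DNA and is expressed in dividing cells, had 67.2 and 258 normalized counts in WT against 368 and 1114 with the KO label (log2 fold change 2.27 ± 0.83 SE, limma adjusted p = 0.345). Tdg, the glycosylase that removes the bases Tet enzymes have oxidised, had 276 and 431 in WT against 962 and 1324 with the KO label (log2 fold change 1.71 ± 0.38 SE, limma adjusted p = 0.199). Neither overlapped between labels, and DESeq2 called Tdg alone of the 32 at an adjusted p under 0.05.

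Of the factors that act on the promoters themselves, Ctcf had 1379.6 and 1448 in WT against 1807 and 2349 with the KO label (log2 fold change 0.54 ± 0.29 SE, limma adjusted p = 0.470). Smchd1, a silencer of the clusters, had 1349 and 667 in WT against 590 and 1635 with the KO label, a log2 fold change of 0.05. Its high libraries were WT replicate 1 and KO replicate 2. The same held for Smc1a, Smc3, Stag1, Stag2, Nipbl, Wapl, Pds5a and Pds5b of the cohesin machinery. It also held for Lrif1, Hells, Tet1 and Tet2 of the list, but not for Ctcf, Rad21 or Mau2. Dnmt3b, the methyltransferase known to methylate the variable promoters early in development, had 45.9 and 46.0 in WT against 27.8 and 23.4 with the KO label (log2 fold change -0.82 ± 0.56 SE, limma adjusted p = 0.564).

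The proteins that process or bind the protocadherins, a list of 28, held 1 lower and 3 higher gene at an unadjusted p under 0.05, with a median of 0.28 (all genes, 9.18% lower and 4.54% higher). DESeq2 called Ret alone of these at an adjusted p under 0.05. The higher were Ret, a receptor that binds alpha and gamma protocadherins (5.33 and 0.920 in WT, 48.2 and 33.3 with the KO label), Ncstn of the gamma-secretase that cleaves them, and Abi2 of the WAVE complex that regulates actin. The lower was Nlgn2, a synaptic adhesion protein, with 4108 and 5772 in WT against 2711 and 2255 with the KO label. Adam10, the sheddase of gamma protocadherins, and the kinase genes Ptk2 and Ptk2b, which the gamma proteins inhibit, did not pass (log2 fold changes 0.66, 0.40 and 0.27).

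Protocadherins outside the clusters, each encoded by a gene of its own, did not share the median direction of the clusters. Of 12, 11 were tested, 2 were lower and 3 higher at an unadjusted p under 0.05, and the median log2 fold change was 1.29 (all genes, 9.18% lower and 4.54% higher). DESeq2 called Pcdh1 and Pcdh7 at an adjusted p under 0.05. Pcdh1, on the same chromosome as the clusters, had 1687 and 2088 in WT against 739.6 and 599 with the KO label (log2 fold change -1.49 ± 0.30 SE, limma adjusted p = 0.182), and Pcdh15 of the inner-ear tip link was the other lower gene. Pcdh7 had 347 and 159 in WT against 524 and 1961 with the KO label, and Pcdh18 and Pcdh19 were also higher. The difference between these genes and the clusters was not tested. Of 17 tested classical cadherins, 1 was lower and 5 were higher, against the same 9.18% and 4.54% of all genes, with a median of 0.75.

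Genes that flank the clusters on the same chromosome showed a median log2 fold change of -0.03 over 15 genes. Rell2 and Arap3 were lower at an unadjusted p under 0.05 and 0 were higher, beside 9.18% and 4.54% of all genes. Diaph1 and Hdac3, both close to the end of the gamma cluster, had log2 fold changes of 0.08 and -0.09.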

How the data were processed

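Total RNA of the 4 samples was sequenced as paired-end Illumina reads, which the authors filtered and aligned to mm10. The aligner, the counting program and the annotation are not given in the sources used here. What the authors deposited is a gene-by-library signal named as FPKM. Its steps showed read counts scaled by a size factor of each library and not by length, as 100% of the values were whole reads to within 0.001 after rescaling, and these reads were recovered for all genes. Genotype means, log2 fold changes and p-values deposited by the authors were not used. Other deposited columns give the length and place of each gene.

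The deposited signal was tested with limma 3.58.1 in R 4.3.3 (eBayes with a trend) on log2(normalized count + 1), over 22094 genes with a mean of at least 1, without a block, and p-values were Benjamini-Hochberg adjusted. This scale understates the change of low genes. The recovered reads were tested with edgeR 4.0.16 and DESeq2 1.42.0. Each of these tools and limma was also run on simulated data, the outcome of which is not reported here. Exons were taken from GENCODE M21, in which 25381 of the 25393 identifiers were found and 24668 had identical ends. Plots used Python 3.11.15 with matplotlib 3.10.9. Detection floors cover counting error only.

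The members, the gene lists and the tests were chosen with earlier results of these data known. Named members were every C-type isoform and the 4 highest per listed kilobase in each other isoform group. The 5 lowest p-values in each direction and those with an adjusted p under 0.05 in any tool were also named. Per own kilobase, Pcdhga11 (168) and Pcdhga4 (156) lie above the named Pcdhga5 (142) and Pcdhga3 (136). Alternatives were other pseudocounts, filters and scalings, no trend, a replicate block, each library left out, own exon bases, edgeR and DESeq2. A crossed block was added after seeing the data.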

Additional observations from a re-analysis of the deposited data

How the results depend on the processing

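Under the alternatives, the 24 named members kept their direction and their side of an unadjusted p of 0.05 in 330 values (among them an exact 0 for Pcdha5 without KO replicate 1, which has no direction), 16 newly passed it, 30 no longer did, and 4 that had not passed changed sign when 1 library was left out (Pcdhga5, Pcdhgb2 and Pcdhb18). The count of 8 lower members was 5 with quantile normalization, and 0, 3, 12 and 5 without WT replicate 1, WT replicate 2, KO replicate 1 and KO replicate 2. The 1 higher member became 2 with a pseudocount of 0.1, no filter or no trend, 3 with quantile normalization, and 0 with a pseudocount of 5, a mean of at least 10, a replicate block, edgeR or DESeq2 (0 to 3 over the omissions). The 0 members after adjustment became 3 with DESeq2. The alpha median of 1.36 was 2.80 and 0.65 with pseudocounts of 0.1 and 5, 1.06 with a mean of at least 10, 1.74 with quantile normalization, 2.85 with edgeR and 2.61 with DESeq2, and 1.05 to 1.90 over the omissions. The beta median ranged from -1.43 to -0.27 over the omissions, and the gamma median was -0.33 with quantile normalization and -0.92 to -0.37 over the omissions. The effective number of isoforms by own exon bases was 8.20 and 11.3 in WT against 13.9 and 15.1 with the KO label. The median of all genes went with quantile normalization from -0.07 to 0.08, and the share of lower genes among unadjusted calls from 66.9% to 51.3%. The cause of these shifts was not tested.

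With the replicate block 6 members were lower at an unadjusted p under 0.05, and 2583 genes in all (0 after adjustment, against 3032 and 0 without it). The labels number the replicates without naming a pairing, and same-numbered libraries did not deviate together (correlation -0.08 over 22094 genes, -0.11 over the 12868 whose mean reached 50). Under the crossed pairing 11 members were lower, and 3432 genes in all, of which 244 passed after adjustment and 0 were members. With 2 libraries a label, a member of low count or with WT replicates far apart cannot be placed.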
